A study of Rattus norvegicus with 10 samples.

Results

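The low methylation tiles are stretches of 1000 bp in rat hippocampal DNA in which a small but measurable share of cytosines was methylated. A tile was taken as low when it lay on chromosomes 1 to 20, had a value in all 10 rats, and had a mean over the rats of at least 5% and under 20%. This gave 15382 low tiles among the 122392 tiles on those chromosomes measured in every rat, and among 176032 tiles in all. Of the same 122392 tiles, 26110 were unmethylated (mean under 5%) and 46277 were intermediate (20% to under 80%). The mean level chose the low tiles, so their level is a description and not a result.

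DNA came from the hippocampus of female rats aged 23 to 24 months from generation 44 of lines bred for running capacity, with 4 high-capacity runners (HCR; rats 1, 11, 15 and 19) and 6 low-capacity runners (LCR; rats 12, 18, 22, 24, 26 and 30). The study assayed 6 rats of each line and left out HCR samples that failed its quality control. That control used the sequencing and a principal component analysis, so the HCR rats here are those that passed it. No treatment separates the lines, and both had been kept without running wheels. Rats of a line share breeding history, so line and ancestry cannot be told apart. The assay was reduced representation bisulfite sequencing (RRBS), in which DNA is cut with MspI and treated with bisulfite so that methylated cytosines in CpG sites can be counted near CCGG sites. The depth behind each value is unknown, because percentages alone were analysed. The tissue label could not be checked against marker genes, since only DNA methylation was measured.

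Most CpG sites of a mammalian genome are highly methylated, while CpG islands at gene starts are usually free of methylation. DNMT enzymes add the methyl group and TET enzymes oxidise it. Between an island and the methylated DNA around it lies a flank, called a shore, where the level climbs over a short distance, and distal regulatory regions often hold low levels as well. In bulk tissue, a few fully methylated cells and a low level in every cell cannot be told apart.

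The study's annotation of regions that it selected between the lines was read only in part, because the copy of its main list was shortened. The rows read paired 16 low tiles with a promoter, holding 31 gene names. Of these names, 15 had a start window in RefSeq (300 bases, from 250 before the start to 50 after it, build GRCr8). No window was found for Cldn4, Nol3, Kcnv1, Il25 or the other Pcdha names. Windows are shown for 5 of these genes because their tiles span the range from called to uncalled and from higher to lower in HCR. The capitals mark CG dinucleotides, where the CpG methylation read by RRBS sits, and each run is written 5′ to 3′ on the strand of the gene. The tiles are on build mRatBN7.2, so a window may lie partly or wholly outside its tile.
Ndufaf8: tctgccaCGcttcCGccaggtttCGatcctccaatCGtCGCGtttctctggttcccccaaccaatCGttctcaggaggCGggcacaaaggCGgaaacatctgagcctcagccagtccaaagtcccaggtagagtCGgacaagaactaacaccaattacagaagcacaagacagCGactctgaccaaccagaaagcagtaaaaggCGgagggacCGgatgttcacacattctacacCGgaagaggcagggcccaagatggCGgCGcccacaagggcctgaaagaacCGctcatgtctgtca
Tfam: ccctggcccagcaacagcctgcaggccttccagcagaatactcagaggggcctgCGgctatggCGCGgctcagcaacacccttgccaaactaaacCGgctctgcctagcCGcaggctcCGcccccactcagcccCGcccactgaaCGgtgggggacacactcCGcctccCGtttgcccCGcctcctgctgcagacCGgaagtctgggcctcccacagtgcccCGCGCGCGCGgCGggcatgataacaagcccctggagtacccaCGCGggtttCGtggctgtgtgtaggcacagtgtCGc
Cacna1d: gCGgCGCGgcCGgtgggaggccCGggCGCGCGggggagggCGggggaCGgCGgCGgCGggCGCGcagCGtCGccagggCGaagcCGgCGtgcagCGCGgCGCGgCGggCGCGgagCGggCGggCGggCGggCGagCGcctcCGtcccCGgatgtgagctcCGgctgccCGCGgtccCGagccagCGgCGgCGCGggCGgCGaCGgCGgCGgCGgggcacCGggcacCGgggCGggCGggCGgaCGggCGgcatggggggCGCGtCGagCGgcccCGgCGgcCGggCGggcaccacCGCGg
Nfatc2: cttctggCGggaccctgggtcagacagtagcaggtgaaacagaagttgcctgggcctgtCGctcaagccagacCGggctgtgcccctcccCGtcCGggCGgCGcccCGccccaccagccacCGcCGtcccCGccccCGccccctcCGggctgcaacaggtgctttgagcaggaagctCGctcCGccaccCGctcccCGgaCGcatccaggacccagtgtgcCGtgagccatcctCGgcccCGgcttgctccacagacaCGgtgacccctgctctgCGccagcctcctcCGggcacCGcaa
Axin2: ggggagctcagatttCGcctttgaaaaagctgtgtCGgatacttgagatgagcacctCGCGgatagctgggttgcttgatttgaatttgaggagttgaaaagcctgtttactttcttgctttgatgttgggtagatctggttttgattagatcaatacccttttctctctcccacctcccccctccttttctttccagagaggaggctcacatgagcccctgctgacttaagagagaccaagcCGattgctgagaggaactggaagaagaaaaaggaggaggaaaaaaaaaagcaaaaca

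The Ndufaf8 window (plus strand) held 17 CG, and the window of Tepsin on the minus strand overlapped it over 299 bases, so the pair shares 1 start region. Tfam (plus) held 22 CG, Nfatc2 (minus) 25, Axin2 (plus) 5 and Cacna1d (minus) 66. The median over all 33469 rat windows was 7 CG, and nearly all of them held fewer CG than the Cacna1d window. The MspI site CCGG, which reads the same on both strands and contains 1 CG, was in 51.4% of all windows and in 13 of the 16 windows of the matched names. Of the 5 windows shown, the Axin2 window alone held no CCGG. A match is a description of the window and says nothing about where reads fell.

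Across rats, the low tiles were on average at 11.2% in HCR rat 1, 13.2% in rat 11, 10.9% in rat 15 and 15.8% in rat 19. The LCR rats ranged from 9.42% (rat 30) to 13.9% (rat 24). The HCR line mean was 12.8% ± 2.27 (SD, n = 4) and that of LCR 11.2% ± 1.91 (SD, n = 6), a gap of 1.61 points that was smaller than the SD within either line. The rats of the lines overlapped, with LCR rats 18 and 24 above all HCR rats except rat 19.

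**Figure D1:**
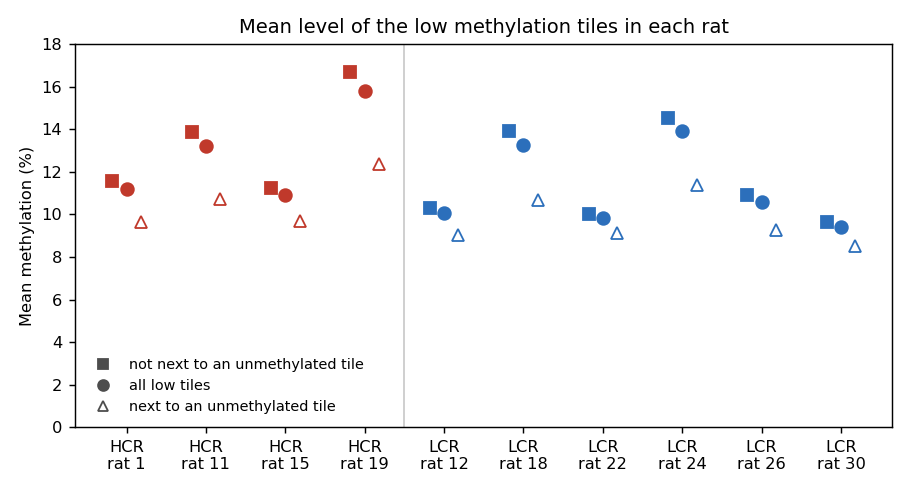
Mean methylation (%, vertical axis) of the low tiles in each of the 4 HCR rats (red) and 6 LCR rats (blue), for all 15382 low tiles (circles), the 3151 next to an unmethylated tile (open triangles) and the 12231 others (squares). In each rat the tiles next to an unmethylated tile had the lower mean, and HCR rat 19 was highest at 15.8% over all low tiles.

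Rats differed more in these tiles, as a ratio, than in other bands of level. In points they differed less than over intermediate tiles, whose rat means ran from 45.1% to 59.7%, against 9.42% to 15.8% here. The highest rat, HCR 19, was 1.68 times the lowest, LCR 30, over the low tiles. The same ratio was 1.32 over intermediate tiles and 1.17 over all 122392 tiles, and over unmethylated tiles the highest was 1.31 times the lowest, there LCR rat 26. HCR 19 had the highest value in 26.5% of the low tiles, LCR 18 in 17.4%, LCR 24 in 16.1% and HCR 11 in 12.6%. The 4 rats together were highest in 72.5% of the low tiles. The same 4 rats also had the highest means over intermediate tiles and over all 122392 tiles, so this order was not particular to the low tiles. HCR 19 also had the fewest tiles without a value, 2023 of 176032, while LCR 12 had the most, 19022, and the part of this in the levels was not tested.

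Low by the mean did not mean low in every rat. Only 2309 of the low tiles (15.01%) had all 10 rats between 5% and 20%. With each median taken separately over the tiles, the lowest rat was at 4.44%, the highest at 20.4% and the range 14.8 points. A rat at 0 was found in 1486 tiles (9.66%), and a rat at 50% or more in 147. Both line means lay between 5% and 20% in 12315 tiles, whereas the HCR mean reached 20% in 1560 tiles and the LCR mean in 307. The HCR mean was under 5% in 456 tiles and the LCR mean in 751. The mean of the rule holds 4 HCR and 6 LCR rats, so it bounds the HCR mean less tightly. These counts therefore depend in part on the rule.

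The widest tiles were set by single rats. At chr7:11945001-11946000, LCR 24 was at 95.7%, while HCR 19 was at 4.81%, HCR 15 at 0.725% and the remaining 7 rats at 0. At chr20:11382001-11383000, HCR 19 was at 96.2%, with the other HCR rats at 6.96%, 3.99% and 5.82% and the LCR rats from 1.05% through a median of 3.22% to 11.3%. The other pair of the 4 widest tiles was chr15:10401001-10402000, where LCR 24 reached 84.4% and the rest stayed at or below 17.4%, and chr10:85564001-85565000, where LCR 30 reached 79.1% and the next rat, HCR 19, 31.6%. None of these 4 was called between the lines. In 17 low tiles, a single rat supplied over 50% of the sum over the 10 rats: HCR 19 in 5, LCR 18 in 5, LCR 24 in 4, and HCR 11, LCR 26 and LCR 30 in 1 each.

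The 4 narrowest tiles were all next to an unmethylated tile. At chr6:75133001-75134000, the HCR rats were at 4.89%, 5.56%, 4.91% and 5.43%, and the LCR rats ran from 4.32% through 5.23% to 5.84%, a range of 1.53 points over all rats. At chr7:109954001-109955000 the 10 rats lay between 5.98% and 7.60%. The tiles at chr5:148878001-148879000 and chr5:165929001-165930000 spanned 1.56 and 1.60 points. The lines overlapped in each of the 4.

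At the limits of the rule, neighbouring means had dissimilar rats behind them. Just below 5% were chr9:110714001-110715000 (rats from 2.26% to 9.06%) and chr1:133443001-133444000 (3.596% to 7.75%), and just above it chr2:40859001-40860000 (3.39% to 6.93%) and chr2:23886001-23887000 (0 to 14.1%). Just below 20% were chr17:23149001-23150000 (9.76% to 47.5%) and chr1:20935001-20936000 (11.4% to 26.2%), and just above it chr17:54155001-54156000 (6.43% to 40.7%) and chr6:18971001-18972000 (0 to 33.8%).

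Low tiles were then divided by their neighbours, to ask whether those at the edge of an unmethylated stretch differ from the rest. An unmethylated tile adjoined 3151 of them, and 12231 had none. Of the latter, 4594 had a measured neighbour that was not unmethylated, and 7637 had no measured neighbour, so for these the class reflects what was covered. Where both neighbours were measured, both were unmethylated for 124 tiles, 1 of them for 585 and neither for 548.

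Tiles next to an unmethylated tile lay lower within the band and varied less between rats. Their median level was 8.93% against 12.2% for the others, and their mean was lower in each of the 10 rats, with a gap of -0.87 points in LCR 22 and up to -4.34 in HCR 19. The median range over rats was 10.03 points against 16.04. Among the others it was 14.9 points where a neighbour was measured and 16.7 where none was. Since the range grows with the level, the classes were also set side by side within narrower bands. Tiles without a measured neighbour stayed among the others there. Among tiles of 5% to 10%, the median range was 7.66 points next to an unmethylated tile and 10.99 elsewhere, and among those of 10% to 20% it was 14.3 and 19.1. All 10 rats lay within 5% to 20% in 22.9% of the tiles next to an unmethylated tile and in 12.98% of the others. Neighbouring tiles come from the same libraries and their coverage is unknown, so these are descriptions without a test.

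**Figure D2:**
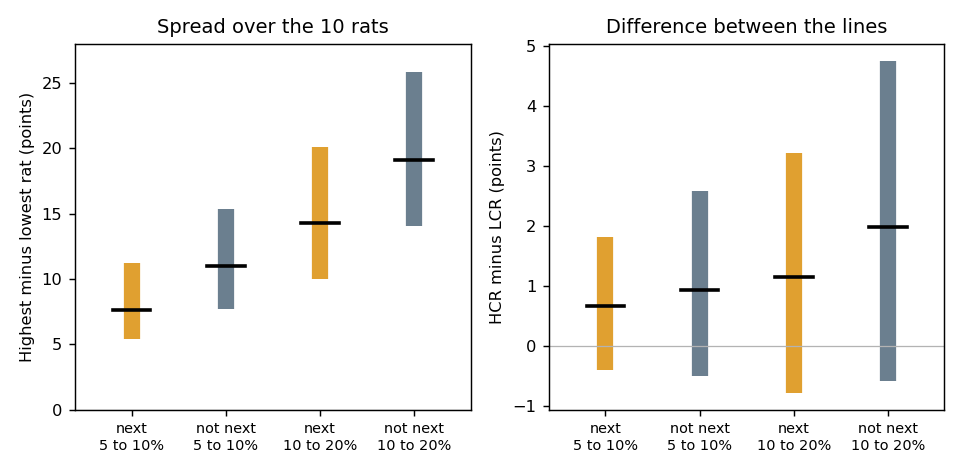
Range over the 10 rats (left, highest minus lowest rat in percentage points) and HCR minus LCR difference (right, percentage points) for low tiles next to an unmethylated tile (orange) and not next to one (grey), each divided by mean level. Bars run from the lower to the upper quartile over tiles and black lines are medians: the range was smaller next to an unmethylated tile in both bands (7.66 against 10.99 and 14.3 against 19.1 points).

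The surroundings were laid out for 3027 low tiles with exactly 1 unmethylated tile among their measured neighbours, and the far side was measured for 585 of these. The classes fix the order of the nearest values, since the neighbour is under 5%, the low tile at 5% to 20% and a measured far tile not under 5%, so their medians of 1.80%, 8.98% and 19.5% are no result. Of the measured far tiles, 51.1% were low themselves, 43.6% intermediate and 5.30% at 80% or more. At larger distances, where the rule sets no limit, the far-side medians were 15.03%, 12.1%, 14.0% and 13.7% at 2, 3, 4 and 5 kb, and on the unmethylated side 73.9% of measured tiles were still under 5% at 2 kb. At 1 kb on the far side the mean was 29.2% in HCR and 27.4% in LCR.

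**Figure D3:**
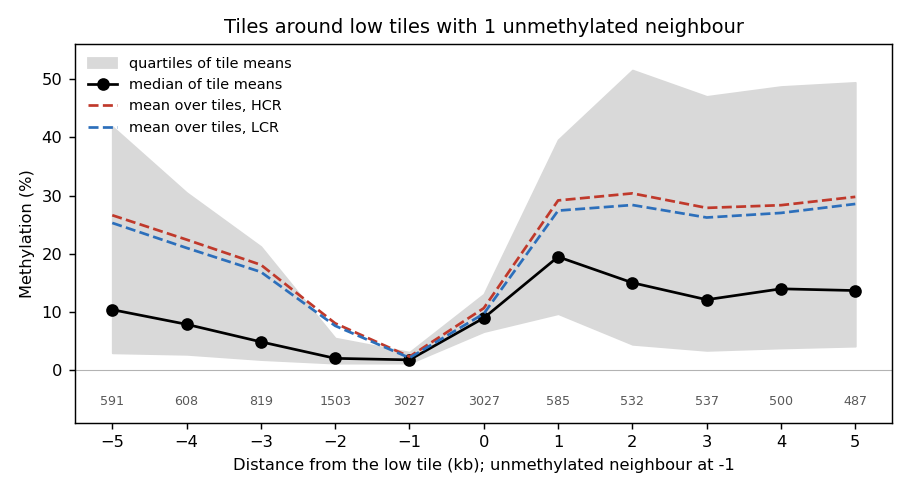
Methylation (%) by distance in kb from 3027 low tiles with exactly 1 unmethylated tile among their measured neighbours, turned so that this neighbour is at -1; points are medians of tile means, shading the quartiles, dashed lines the means over tiles in HCR (red) and LCR (blue), and the numbers below give the tiles measured at each distance. The values at -1, 0 and +1 are bounded by the choice of the tiles, and the medians from +2 to +5 lay between 12.1% and 15.03%.

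Runs of consecutive low tiles were short, with 12596 of 1 tile, 1219 of 2, 83 of 3 and 22 longer, but 7637 of the single tiles had no measured neighbour and could not be part of a longer run. The longest run held 7 consecutive low tiles at chr3:22126001-22133000, with tile means from 5.46% to 16.6% and line means over the run of 8.63% in HCR and 9.16% in LCR. None of its tiles was called. By chromosome, low tiles made up from 10.6% (chromosome 9) to 14.9% (chromosome 12) of the tiles measured in all rats.

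Between the lines, on the percentages as deposited, more low tiles were higher in HCR than lower. The HCR mean was above the LCR mean in 10520 of 15382 tiles (68.4%), beside 65.6% of the 122389 tested tiles that all rats had values for on chromosomes 1 to 20. The median difference was 1.29 points in low tiles and 0.746 over all tiles measured in every rat on those chromosomes. It was 3.38 points in intermediate tiles, of which 69.9% were higher in HCR. In tiles of 80% to under 95% it was 1.42 points, with 65.5% higher. The lean to HCR was therefore not particular to the low tiles. Among low tiles, the median was 0.781 points next to an unmethylated tile and 1.505 elsewhere. Most tiles elsewhere had no measured neighbour, and with only those of 2 measured neighbours kept there, their median was 1.13 points. With quantile normalization, 48.2% of the low tiles were higher in HCR and the median difference was -0.12 points. Setting the rat means equal takes the same 1.91 points from each difference, more than the median itself, so the resulting 42.1% and -0.62 points follow from that subtraction. Why the low tiles were more often higher in HCR was not tested. Without HCR 19 the median difference was 0.486 points and the gap between the neighbour classes went from -0.72 to -0.22.

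To find single tiles that differed, each of 176004 tiles was tested with limma, and a tile was called at a Benjamini-Hochberg adjusted p under 0.1 with a difference of at least 5 points. In all, 20 low tiles were called (0.130%), 19 higher and 1 lower in HCR, against a background of 0.0858% of all tested tiles (0.058% higher, 0.0278% lower) and 0.0907% of those measured in all rats on chromosomes 1 to 20. Of the 46277 intermediate tiles 58 were called (0.125%), 41 higher and 17 lower in HCR, a share near that of the low tiles. Of the calls in low tiles, 3 lay next to an unmethylated tile (0.0952% of that class) and 17 elsewhere (0.139%). At an unadjusted p under 0.005, with the same 5 points, 279 low tiles passed (1.81%; background 1.03%), 253 of them higher in HCR (background 0.782%). Since a difference of 5 points is out of reach for most unmethylated tiles, of which 2 were called, part of this background could not be called. Every HCR rat lay above or every HCR rat lay below all LCR rats in 301 low tiles, 1.96% beside 1.88% of tiles measured in all rats, so this share was near the background.

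The count and its split depended on single rats and on the fit. On a logit scale 4 tiles were called, 1 higher and 3 lower, and with the missing values per rat as a covariate 1 was called, lower in HCR. The count was 4 without HCR 1, 7 without HCR 11, 25 without HCR 15 and 4 without HCR 19. It was 3 without LCR 12, 3 without LCR 18, 5 without LCR 22, 8 without LCR 24, 2 without LCR 26 and 2 without LCR 30. With rat means set equal 6 tiles were called, 5 higher and 1 lower, and after quantile normalization 21, with 11 higher and 10 lower. A similar count did not mean the same tiles. Of the 20 tiles of the main fit, 8 were among the 21 after quantile normalization, 10 among the 25 without HCR 15 and 2 among the 4 on a logit scale.

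The 20 called tiles lay on 13 chromosomes. In none did the lines overlap, but the tiles were called on these same rats, so this is no separate evidence. By the study's annotation, 10 were intergenic or unannotated, 5 exonic, 3 intronic, 1 in a promoter and 1 upstream of a gene. CpG contexts were given for 17, with 7 in open sea, 5 in islands, 3 in shores and 2 in shelves. The study had selected all 20 on the same rats, so its list is no independent evidence for them. In most of the 20 the HCR mean was 20% or more, up to 36.1%, and in a few the mean of 1 line was under 5%. Such tiles met the rule only as a mean over both lines.

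The tile with the smallest adjusted p was also the single one lower in HCR. It was an unannotated CpG island tile at chr1:160268001-160269000, whose left neighbour was low as well, at 7.99%. The HCR rats were at 1.32%, 3.26%, 0.590% and 3.66%, and the LCR rats ran from 8.59% through 10.5% to 12.1%. HCR was lower by 8.34 points, written as -8.34 ± 0.887 (SE; limma, adjusted p = 0.0291). It was called in all 10 fits that left out a rat and in all 6 other fits, and no other low tile was.

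Next in order came chr20:9913001-9914000, a shelf tile without a gene, where the HCR rats were at 19.8%, 18.01%, 18.4% and 14.2% and the LCR rats ran from 5.26% through 7.31% to 9.41%. All HCR rats were above all LCR rats, by 10.3 ± 1.28 points between means (SE; limma, adjusted p = 0.0372), and 8 of the 10 fits that left out a rat called it. In open sea at chr1:135950001-135951000, the HCR rats were at 18.4%, 21.7%, 25.3% and 27.0% and the LCR rats ran from 6.04% through 10.1% to 12.1%. That difference was 13.6 ± 1.93 points (SE; limma, adjusted p = 0.0625), and it was called in 1 of the 10 fits without a rat.

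A shore tile without a gene at chr2:3316001-3317000 had HCR rats at 27.8%, 17.7%, 19.6% and 24.9%, and LCR rats from 6.197% through 6.82% to 12.7%. The lines were 14.7 ± 2.11 points apart (SE; limma, adjusted p = 0.0665). The open sea tile chr5:149541001-149542000 had HCR rats at 33.7%, 26.2%, 28.8% and 32.2%, and LCR rats spread more widely, from 0.830% through 6.73% to 17.1%. Its difference was 22.1 ± 3.27 points (SE; limma, adjusted p = 0.0704). At chr7:105362001-105363000 the HCR rats were at 14.95%, 9.82%, 14.97% and 8.70% and the LCR rats ran from 0 through 3.24% to 4.05%, so that HCR was higher by 9.75 ± 1.45 points (SE; limma, adjusted p = 0.0704). These 3 tiles held their call in 3, 2 and 1 of the 10 fits without a rat.

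The largest difference was at chr14:16383001-16384000, an open sea tile without a gene. HCR rats 1, 11 and 19 were at 42.9%, 40.4% and 40.2%, HCR 15 was at 20.98%, and the LCR rats ran from 0 through 5.19% to 17.6%. HCR was higher by 28.9 ± 4.67 points (SE; limma, adjusted p = 0.0931). HCR 15 stood nearer to the highest LCR rat than to the other HCR rats.

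The second largest was the promoter tile of Ndufaf8, which encodes an assembly factor of mitochondrial complex I, and Tepsin, which encodes an accessory protein of an adaptor complex in vesicle traffic. This shore tile at chr10:105382001-105383000 had an unmethylated tile (0.833%) on its left, and their shared start region is the first of the sequences above. The HCR rats were at 34.4%, 26.6%, 11.9% and 34.3%, whereas the LCR rats ran from 0 through 2.12% to 4.04%. HCR was higher by 25.03 ± 3.75 points (SE; limma, adjusted p = 0.0704). The LCR rats by themselves would have placed it among the unmethylated tiles, with a mean of 1.78%. It was called in 1 of the 10 fits without a rat and in 4 of the 6 other fits, rat means set equal included (adjusted p = 0.0442).

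An exonic shore tile of Cox14, an assembly factor of cytochrome c oxidase, and Gpd1, the cytosolic glycerol-3-phosphate dehydrogenase, lay at chr7:130849001-130850000 beside a tile at 47.0%. The HCR rats were at 27.6%, 29.5%, 24.2% and 34.7%, and the LCR rats ran from 4.55% through 10.5% to 17.1%. The difference was 18.7 ± 2.79 points (SE; limma, adjusted p = 0.0704), called in 2 of the 10 fits without a rat.

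**Figure D4:**
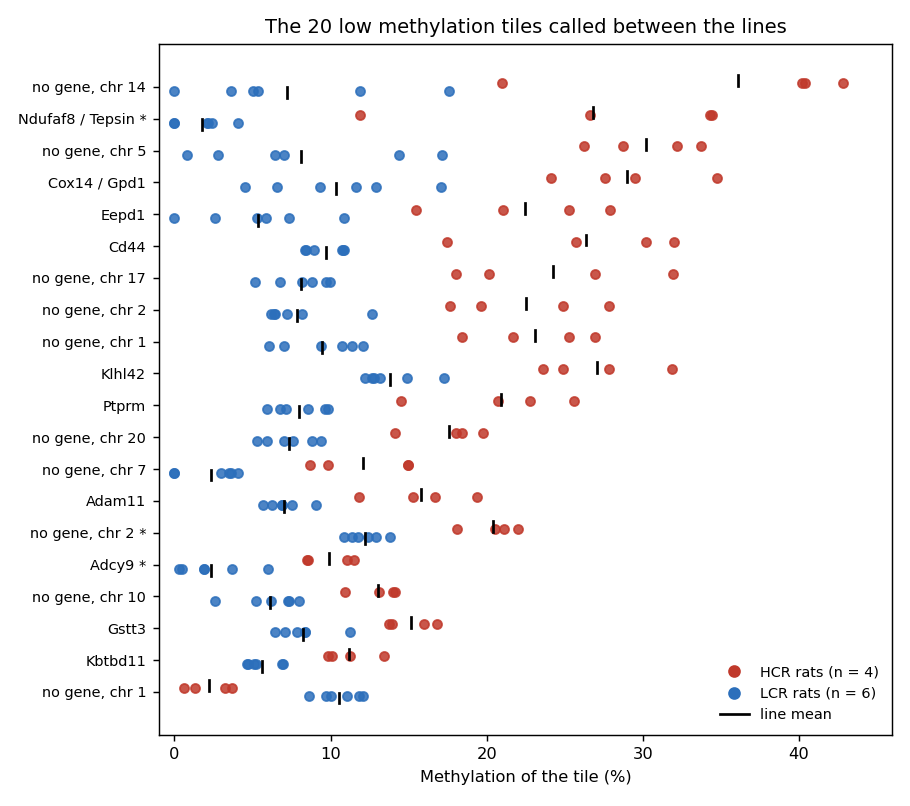
Methylation (%, horizontal axis) of each called low tile in the 4 HCR rats (red) and 6 LCR rats (blue), ordered by HCR minus LCR; black ticks are line means, names are the genes that the study's annotation gives and an asterisk marks tiles next to an unmethylated tile. In each tile the lines did not overlap, in the same rats on which the tiles were called. The bottom tile on chromosome 1 (2.21% in HCR, 10.5% in LCR) was the only 1 of the 20 lower in HCR.

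The remaining called tiles with a gene were all higher in HCR. Introns held the tiles of Ptprm, a receptor tyrosine phosphatase of cell adhesion (20.9% in HCR, 7.97% in LCR), Eepd1, a nuclease family protein (22.4% and 5.33%), and Cd44, the hyaluronan receptor (26.3% and 9.68%). Exonic tiles were those of Kbtbd11, a Kelch and BTB domain protein (11.1% and 5.59%), Adcy9, an adenylyl cyclase (9.89% and 2.37%), Adam11, a member of the ADAM family that lacks protease activity (15.8% and 7.04%), and Gstt3, a glutathione transferase (15.1% and 8.22%). The tile of Klhl42, a ubiquitin ligase adaptor, lay upstream (27.0% and 13.8%). Adjusted p-values of these 8 in limma ran from 0.0704 to 0.0869, and each was called in 0 to 2 of the 10 fits without a rat. Adcy9 was next to an unmethylated tile (3.33%) on 1 side, with 67.7% on the other.

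Of the 3 called tiles without a gene that are not yet described, chr2:62001-63000 was an island tile between neighbours at 2.10% and 83.5%. Its HCR rats were at 21.1%, 18.1%, 21.98% and 20.5% and its LCR rats ran from 10.9% through 12.1% to 13.8%, an 8.24-point difference. The others, chr17:9708001-9709000 and chr10:38354001-38355000, differed by 16.2 and 6.94 points. Each of the 3 was called in at most 1 of the 10 fits without a rat.

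The 16 promoter tiles, including the called one, were 12 higher and 4 lower in HCR. They belong to 207 low tiles named in the rows read of the study's lists, whose regions were selected on these rats. These 207 leaned the same way (183 higher, 24 lower), so the counts are no independent evidence of direction. An island, shore, shelf or open sea was given for 172 of the 207. Of those next to an unmethylated tile, 32 were in shores, 15 in islands, 4 in open sea and 2 in shelves, and of the others 22, 36, 37 and 24.

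Besides Ndufaf8, none of the promoter tiles was called. The tile of Tfam, the mitochondrial transcription factor that packs mitochondrial DNA, lay at chr20:17355001-17356000 next to an unmethylated tile. Its HCR rats were at 8.26%, 16.8%, 19.8% and 21.6%, and its LCR rats ran from 6.76% through 8.49% to 13.7%. The lines overlapped through HCR 1, and the difference was 7.53 ± 2.42 points (SE; limma, adjusted p = 0.525). The tile of Cacna1d, an L-type calcium channel subunit, at chr16:5520001-5521000, lay between 2 unmethylated tiles (3.81% and 1.26%). Its HCR rats were at 28.9%, 17.1%, 25.5% and 18.8%, and its LCR rats ran from 6.37% through 11.7% to 22.8%, overlapping with HCR (9.58 ± 3.30 points; SE; limma, adjusted p = 0.566).

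The tile of Nfatc2, a calcium-dependent transcription factor, at chr3:157314001-157315000 had no unmethylated neighbour. Its HCR rats were at 18.5%, 15.1%, 14.7% and 20.5% and its LCR rats ran from 6.44% through 10.4% to 15.4%, with LCR 18 within the HCR range. Lower values in HCR came from Axin2, a negative regulator of Wnt signalling, at chr10:93899001-93900000, where the HCR rats were at 0, 4.78%, 2.81% and 2.76% and the LCR rats ran from 1.67% through 10.2% to 11.3%. The Kcnv1 tile, of a modifying potassium channel subunit, at chr7:76268001-76269000 was at 3.28%, 1.22%, 0.712% and 1.15% in HCR and ran from 3.11% through 12.0% to 24.7% in LCR. The lines overlapped in Axin2 and Kcnv1, and adjusted p-values were 0.403 for Nfatc2, 0.498 for Axin2 and 0.578 for Kcnv1 (limma). The other lower tiles were those of Stk24 (2.86% in HCR, 7.98% in LCR) and of the Pcdha protocadherins (8.24% and 14.0%), whose variable first exons share 1 cluster.

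The gene lists gave few low tiles, because only tiles in the rows read of the study's lists carry a gene name. These were 140 of the 15382 low tiles. Among developmental regulators, the tile of Gata4 was at 18.5% in HCR and 9.46% in LCR, that of Pax8 at 10.5% and 17.4%, and that of Fgf8, a secreted growth factor, at 16.8% and 10.6%. Among synaptic genes, Gabbr2, a GABA-B receptor subunit, was at 13.7% and 6.69%, and Doc2a, a calcium sensor of vesicle release, at 16.2% and 8.51%. The myelin enzyme Cnp was at 12.6% and 7.48%, and Cldn5, a tight junction protein of brain vessels, at 17.8% and 12.2%. Adjusted p-values of these 7 in limma ran from 0.155 to 0.614, and none was called. The lists of voltage-gated channels, clustered protocadherins and mitochondrial genes were met by the promoter tiles already given, and Ndufaf8 was the only called member of any list. Among the low tiles with a gene name, none fell to homeobox genes, glutamate receptors, the MAPK cascade, immediate early genes or neurotrophins. None fell to imprinted genes, the DNA methylation machinery, or markers of neurons, astrocytes and microglia. Low tiles without a name could not be searched, so these genes may still hold low tiles.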

How the data were processed

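Percent methylation per 1000 bp tile was deposited for each rat by the authors, who trimmed reads with Trim Galore 0.6.10, aligned and called them with Bismark and Bowtie2 on mRatBN7.2 (rn7), and tiled the calls with methylKit, as their notes and methods give it. Read counts behind the percentages were not used here, so the count test of the study was not run and precision per tile is unknown. Each rat was 1 replicate, and where separate processing is not stated p-values measure the spread between these rats.

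Differences were fitted with limma 3.58.1 in R 4.3.3 on the percentages with a mean-variance trend, over all 176004 tiles that varied; 28 tiles without spread were not tested. Adjustment was Benjamini-Hochberg over all tiles. A neighbour was a tile with a start 1000 bp away. The members and gene lists were chosen with earlier results of these data known. Tiles were named by rule: all called ones, in full for the 6 smallest adjusted p and the 4 largest differences, the 4 widest and 4 narrowest ranges, those at the limits, the longest run, and list genes with a tile; the promoter tiles beyond these were chosen for their annotation after values were seen. Gene names, features and CpG contexts came from the annotation columns of 1999 and 662 rows of the study's tables. The 1999 rows are a shortened copy of its full list of regions. The study's fold differences and p-values were not used. Promoter windows came from RefSeq on GRCr8, and no coordinates were converted. The test was checked on simulated data. Alternatives were another scale, no trend, other scalings of the rats, other limits, a covariate for tiles without a value, and each rat left out.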

Additional observations from a re-analysis of the deposited data

Results flagged for a closer look

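A single rat stood apart from the rest of its line in 11 of 114 groups, which were the HCR and the LCR rats of 54 named tiles and 6 groups of rat means over the low tiles. The limit was Dixon's critical value, which chance passes in about 1 in 20 groups. Of the 11, 6 come from the 4 tiles chosen for the widest range, where such a rat is what the choice sought. No group of rat means was among them.

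In the called tile chr2:3316001-3317000, LCR 26 was at 12.7% and the next LCR rat at 8.20%. In the called tile chr14:16383001-16384000, HCR 15 was at 20.98% and the nearest HCR rat at 40.2%. In the promoter tile of Cmtm5 and Il25 at chr15:28411001-28412000, HCR 19 was at 26.2% while the nearest HCR rat was at 9.84%. The lines did not overlap there, and the tile was not called (limma, adjusted p = 0.529). At the limits of the rule, LCR 26 was at 9.39% in chr2:23886001-23887000 (next LCR rat 3.18%), and HCR 19 at 47.5% in chr17:23149001-23150000 (next HCR rat 16.1%).

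Among the widest tiles, chr7:11945001-11946000 had LCR 24 at 95.7% with the other LCR rats at 0, and HCR 19 at 4.81% with the next HCR rat at 0.725%. At chr20:11382001-11383000, HCR 19 was at 96.2% (next HCR rat 6.96%) and LCR 30 at 11.3% (next LCR rat 4.63%). LCR 24 at 84.4% in chr15:10401001-10402000 and LCR 30 at 79.1% in chr10:85564001-85565000 stood above LCR rats of at most 17.4% and 16.1%.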

How the results depend on the processing

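The 20 calls became 4 on a logit scale (1 higher and 3 lower in HCR), 11 without the mean-variance trend, 6 with rat means set equal, 1 with the missing values per rat as a covariate, 2 at an adjusted p under 0.05, 12 at a difference of at least 10 points, 279 at an unadjusted p under 0.005 and 5 among tiles of 5% to 10%. They ranged from 2 to 25 with a rat left out, and were 15 to 27 in the other alternatives. These were not always the same tiles: of the 21 called after quantile normalization, 8 were among the 20. The median difference between the lines was -0.62 points with rat means set equal, where 1.91 points are taken from each HCR minus LCR difference, and ranged from 0.486 to 1.74 with a rat left out. The difference in median level between tiles next to an unmethylated tile and the others, -3.26 points, was -0.52 within 5% to 10% and -0.98 within 10% to 20%, and ranged from -3.42 to -2.98 with a rat left out, while the difference of their line gaps ranged from -1.02 to -0.22. With only tiles of 2 measured neighbours kept among the others, the difference of the line gaps was -0.35 points. No called tile changed direction with a rat left out, but this was fixed in advance, since the lines overlapped in none of them. The cause of these changes was not tested. No paired analysis was possible because the sample labels match no HCR rat to an LCR rat. Depth is unknown, so values at 0 and wide ranges cannot be weighed by coverage.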
